A study of Mus musculus with 45 samples.

Results

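The 34 genes described here encode carriers, enzymes and regulators with which the liver oxidises fatty acids and makes ketone bodies. They were chosen by name and matched by Ensembl ID to the deposited gene counts, a table of 19966 genes. All 34 of 34 were found, and 34 of 34 passed the filter on low counts that left 14090 genes for testing, with a lowest count of 4 in any library. The study sequenced poly(A) RNA from livers of Uhrf1hepKO mice (KO) and wild-type mice (WT), all C57Bl/6, on a normal diet and 8 to 12 weeks old at surgery. UHRF1 recognises newly copied DNA and recruits the enzyme that maintains its methylation, and the name of the strain places its loss in hepatocytes; the promoter that drives the deletion is not given in the sources used here. KO and WT livers were taken before surgery (baseline) and on 7 occasions after partial hepatectomy. In this operation, done in the morning, part of the liver is cut away and the remnant grows back. The occasions were 24, 30, 40, 48 and 96 h, 7 days and 4 weeks, which gives 16 groups and 45 libraries. KO groups held 3 libraries each, other than 7 days with 2, and WT groups held 3 each, other than 30 h and 48 h with 2. Whether each library came from its own mouse is not stated, so the p-values measure the spread between these libraries, which may be in part technical. The deposited headers name the baseline libraries 40hrs_b, and how they relate to the 40 h libraries is not stated. Baseline and 40 h were compared as unpaired groups.

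Long-chain fatty acids enter mitochondria as carnitine esters through CPT1A, the carrier SLC25A20 and CPT2, and are then shortened in repeated rounds of dehydrogenation, hydration, dehydrogenation and thiolysis. Electron-transfer flavoprotein passes electrons from the first step to the respiratory chain, and the acetyl-CoA produced can be turned into ketone bodies that the liver exports. Peroxisomes shorten very long chains and dicarboxylic acids, and CYP4A enzymes of the endoplasmic reticulum start oxidation from the omega end. The nuclear receptor PPARα, active in fasting, drives many of these genes in mouse liver. After partial hepatectomy the remnant liver takes up fat from adipose tissue and stores it for a time, and fatty acid oxidation is one of its sources of energy.

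PPARα binds DNA with RXR at direct repeats of a half-site separated by 1 base, so the RefSeq promoter windows of the members (GRCm38.p6, 250 bases before to 50 after the start of the gene) were searched on both strands for AGGTCANAGGTCA with up to 2 mismatches. Windows were listed for 28 of the 34 members, and those of Acaa2, Decr1, Hsd17b4, Abcd2, Cyp4a10 and Cyp4a14 were not searched. A match lay in a window of 4 of these 28 members (14.3%) and of 1190 of the 27025 genes of the table (4.4%). The 4 matching windows are shown because they belong to genes that moved in opposite directions after surgery, as the values below show: Acot4 and Slc25a20 rose at 24 h, while Echs1 and, in WT livers, Etfa fell. Capitals mark the match, written as it reads on the strand of the gene. The window of Acot4 is chr12:84038129-84038428 (plus strand), with the match on the opposite strand at -13 to -1 from the start of the gene. That of Slc25a20 is chr9:108661886-108662185 (plus strand), with the match at 6 to 18. That of Echs1 is chr7:140116372-140116671 (minus strand), with the match at -83 to -71, and that of Etfa is chr9:55512194-55512493 (minus strand), with the match on the opposite strand at -77 to -65.
Acot4: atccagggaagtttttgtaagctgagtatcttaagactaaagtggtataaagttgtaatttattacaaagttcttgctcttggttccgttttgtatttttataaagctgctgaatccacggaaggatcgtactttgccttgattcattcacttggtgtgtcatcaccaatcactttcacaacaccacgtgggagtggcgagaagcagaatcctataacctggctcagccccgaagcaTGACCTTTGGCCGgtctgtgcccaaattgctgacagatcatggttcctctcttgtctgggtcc
Slc25a20: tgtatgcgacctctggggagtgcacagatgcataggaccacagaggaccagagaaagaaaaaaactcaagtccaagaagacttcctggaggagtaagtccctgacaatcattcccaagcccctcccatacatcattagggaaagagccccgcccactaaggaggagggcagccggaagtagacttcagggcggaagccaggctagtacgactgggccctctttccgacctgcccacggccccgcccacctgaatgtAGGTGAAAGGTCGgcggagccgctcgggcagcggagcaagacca
Echs1: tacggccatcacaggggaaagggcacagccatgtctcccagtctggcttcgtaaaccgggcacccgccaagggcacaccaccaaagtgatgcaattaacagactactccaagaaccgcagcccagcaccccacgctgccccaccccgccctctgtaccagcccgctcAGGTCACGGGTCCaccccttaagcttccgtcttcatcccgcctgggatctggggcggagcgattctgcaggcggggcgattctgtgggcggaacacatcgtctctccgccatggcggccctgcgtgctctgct
Etfa: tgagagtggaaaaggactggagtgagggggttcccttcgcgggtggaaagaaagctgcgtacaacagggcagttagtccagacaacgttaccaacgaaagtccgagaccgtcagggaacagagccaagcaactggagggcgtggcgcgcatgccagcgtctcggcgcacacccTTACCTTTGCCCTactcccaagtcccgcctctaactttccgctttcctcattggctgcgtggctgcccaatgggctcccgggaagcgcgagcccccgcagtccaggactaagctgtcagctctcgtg
A match is only a description of these letters, and binding was not measured.

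Hadha and Hadhb, the α and β subunits of the mitochondrial trifunctional protein, are transcribed away from each other on chromosome 5. In the GENCODE annotation 85 bases lie between their starts. The RefSeq window of Hadha (chr5:30154931-30155230, minus strand) is placed on another start, so the stretch below holds only for the GENCODE starts. The window of Hadhb (chr5:30155003-30155302, plus strand, GRCm38.p6, RefSeq) is shown because it holds the stretch between the GENCODE starts, which is in capitals. The levels of both genes also rose together in the comparisons below.
Hadhb: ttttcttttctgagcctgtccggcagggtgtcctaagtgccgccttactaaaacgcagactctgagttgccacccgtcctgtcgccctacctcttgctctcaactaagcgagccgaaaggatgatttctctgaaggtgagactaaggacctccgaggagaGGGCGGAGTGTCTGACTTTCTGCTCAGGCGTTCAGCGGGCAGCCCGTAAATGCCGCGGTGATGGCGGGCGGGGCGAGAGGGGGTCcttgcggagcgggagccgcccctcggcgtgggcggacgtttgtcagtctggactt
No match to the direct repeat lay in the windows of Hadha or Hadhb under the limit of 2 mismatches.

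Total counts per library lay between 12851359 and 23133501, and levels are given as counts scaled to library size with TMM factors (CPM). The labels were checked first with the deleted gene. Uhrf1 lay at 0.270 to 2.07 CPM in libraries labelled KO and 0.148 to 0.792 CPM in libraries labelled WT at 96 h, while 40 h gave 3.59 to 8.95 CPM in KO and 27.5 to 107 CPM in WT. That low level is not particular to 96 h: Uhrf1 read 0 to 0.247 CPM in KO and 0.219 to 0.644 CPM in WT at baseline, and 0.223 to 0.317 CPM in KO and 0.353 to 0.452 CPM in WT at 4 weeks, so it checks the labels only at the times when WT livers express it. The libraries at 96 h stood apart in other transcripts. Bglap3, which separated KO from WT libraries at every other condition, read 8.83 to 29.4 CPM in libraries labelled KO and 9.38 to 28.4 CPM in libraries labelled WT at 96 h, against 3.18 to 17.4 CPM in the 20 other KO libraries and 0.112 to 1.53 CPM in the 19 other WT libraries. Rhox5 and Gstp2 gave the same picture, so the libraries at 96 h are called by their labels, and their levels are given after those of the other times. Of the hepatocyte markers, 6 of 7 were in the count table, with a summed level of 59913 to 328260 CPM over all libraries. Of the 5 adipose markers, Adipoq, Plin1, Lep and Retn reached at most 0.153 FPKM (a level adjusted for transcript length and library size) and muscle markers at most 0.0548 FPKM in any library. The fifth, Cidec, a lipid droplet gene that fat-laden liver also expresses, is described beside the members' responses.

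Most of these genes rose within a day of surgery in both genotypes. In KO livers 24 of the 34 members were called higher at 24 h than at baseline and 1 lower (edgeR's quasi-likelihood test, adjusted p under 0.05), where 11.5% of all genes tested were called higher and 12.2% lower. In WT livers 22 members were called higher and 2 lower, against 10.5% and 11.9% of all genes. The median log2 fold change of the members was 0.97 in KO and 0.62 in WT, while that of all genes was -0.01 in KO and 0 in WT. Among the members called, Cyp4a14, Cyp4a10, the Acot thioesterases and Ehhadh had the largest increases in KO, joined by Pdk4 in WT, and Echs1 fell in both genotypes. As these are whole livers, a change in the amount of RNA per cell and a change in the share of hepatocytes cannot be told apart. The hepatocyte markers summed to 59913 to 71909 CPM in KO and 62269 to 73515 CPM in WT at 24 h, below the baseline libraries of each genotype (84239 to 92071 CPM in KO, 87190 to 101116 CPM in WT), with 2 of 6 called lower in KO, and 2 lower and 1 higher in WT. Cholangiocyte markers, of which 1 of 5 was called higher in KO and 4 of 5 in WT, summed to 39.6 to 55.3 CPM in KO and 56.9 to 93.5 CPM in WT at 24 h, against 31.6 to 38.7 and 24.9 to 48.6 CPM at baseline. Cidec, 1 of the 5 adipose markers, read 13.8 to 21.3 CPM in KO and 4.21 to 18.8 CPM in WT at 24 h, against 0.865 to 1.76 and 1.14 to 2.22 CPM at baseline, and was called higher at 24 h and 40 h in both genotypes and at 30 h in KO. Monocyte and neutrophil markers were called higher at 24 h for 2 of 7 in KO and 3 of 7 in WT. Kupffer cell markers were called higher for 1 of 8 in each genotype, and stellate markers for 0 of 7 in KO and 2 of 7 in WT. No endothelial or lymphocyte marker was called at 24 h. The part of these markers in the members' changes was not tested.

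The increase faded over the next day. At 30 h, 22 members were called higher and 2 lower in KO (17% and 16.1% of all genes), and 12 higher and 3 lower in WT (9.33% and 8.35%). At 40 h the counts were 17 and 3 in KO (17.9% and 17.7%), and 12 and 6 in WT (19.2% and 17.3%). At 48 h, 13 members were higher and 6 lower in KO (19% and 17%), while 2 were higher and 10 lower in WT (15.6% and 15.4%). The share of members higher than baseline at 48 h thus lay above that of all genes in KO and under it in WT. The 48 h responses of KO and WT differed for 0 of the 34 members by edgeR. The WT libraries of 48 h were unlike each other. Acute-phase markers summed to 3282.3 CPM in replicate 2 and 28504.5 CPM in replicate 3, and hepatocyte markers to 98395.5 and 72253 CPM. The part of this in the WT counts was not tested. The 30 h counts rested on single libraries: 15 members were called in KO without replicate 2, and 7 and 9 in WT without replicate 2 or 3. At 48 h, 12 were called in KO without replicate 3 or without baseline replicate 1, and 7 in WT without replicate 2.

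**Figure D1:**
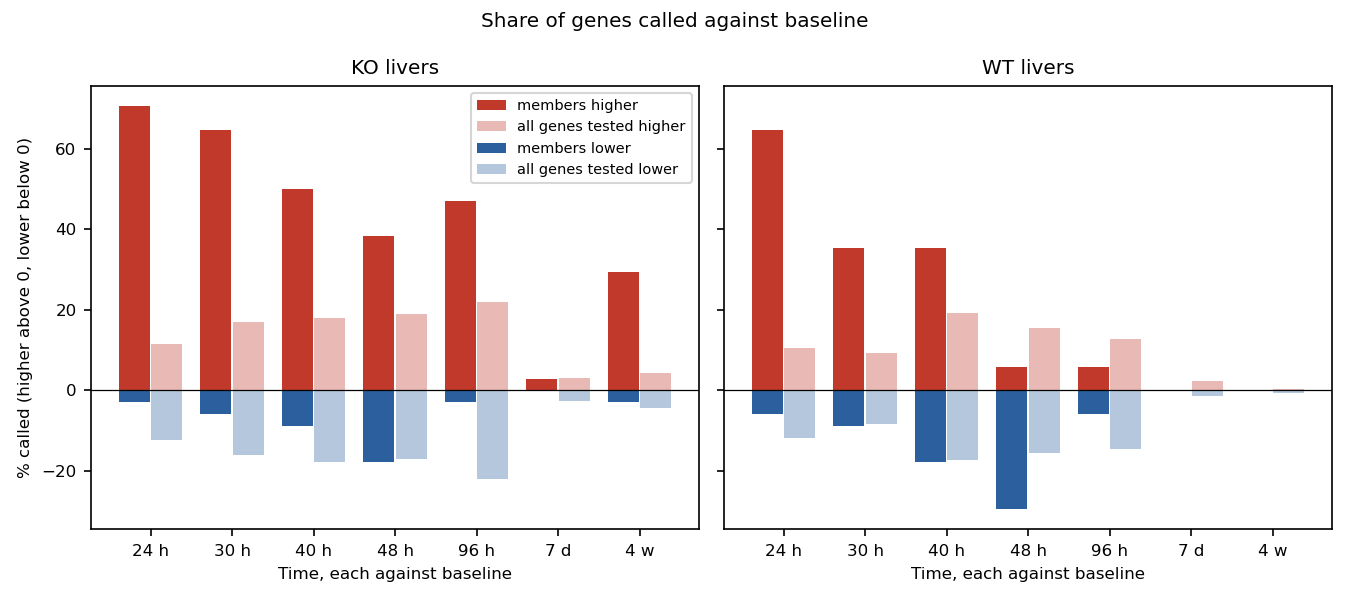
Percent of the 34 members (dark bars) and of all genes tested (pale bars) called higher (above 0) or lower (below 0) than baseline by edgeR, by time after surgery, in KO (left) and WT (right) livers. The highest bars were those of members at 24 h, with 24 members higher in KO and 22 in WT.

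The members' part of all counts followed the same course. They took 1.5% to 2.07% of the counts of KO libraries at 24 h, against 0.665% to 0.685% at baseline, and 1.31% to 1.74% of the counts of WT libraries at 24 h, against 0.676% to 0.777% at baseline. Without Cyp4a10 and Cyp4a14 the shares at 24 h were 1.03% to 1.3% in KO and 0.92% to 1.14% in WT, against 0.639% to 0.665% and 0.665% to 0.761% at baseline, still without overlap. At 48 h the share was 0.789% to 1.08% in KO and 0.65% to 0.695% in WT, so that the KO libraries still lay above their baseline while one WT library lay inside its own. Leaving 96 h aside, the group mean was highest at 24 h for 24 members in KO and for 19 in WT. It was lowest at baseline for 17 members in KO and at 48 h for 15 members in WT. These are orders of group means, which were not tested and have no share of all genes beside them. The WT group at 48 h held 2 libraries.

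**Figure D2:**
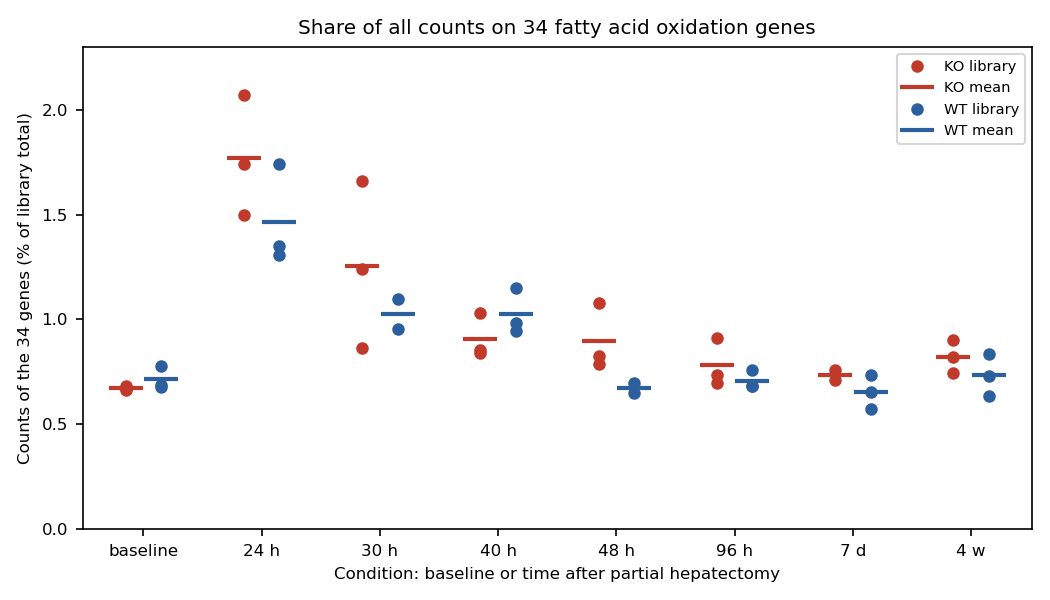
Share of all counts that fell on the 34 members, in percent, by time after surgery; each point is a library and each short line a group mean, with KO left of WT and the 96 h libraries placed by their labels. Shares were 1.5% to 2.07% in KO and 1.31% to 1.74% in WT at 24 h, above every baseline library.

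Over all times other than 96 h, 32 of 34 members varied in KO and 31 of 34 in WT in the joint test of the time course (edgeR, adjusted p under 0.05), where 65.7% and 53.6% of all genes did. Hadh and Abcd2 missed the threshold in both genotypes, and Etfb also in WT. Acute-phase, proliferation and clock transcripts also changed after surgery, on courses that matched that of the members only in part. The acute-phase markers, 4 of 4 called higher in each genotype at 24 h, summed to 23374 to 29478 CPM in KO and 24149 to 29476 CPM in WT, against 46.7 to 58.4 and 54.4 to 99.2 CPM at baseline. At 7 days, 4 of 4 acute-phase markers were still called higher in each genotype. Their sums were 1860.3 and 3905.1 CPM in KO and 1069.1, 25165 and 233.9 CPM in WT, where replicate 2 stood far above the others. Proliferation markers summed to 26.9 to 56.9 CPM in KO and 23.5 to 44.8 CPM in WT at 24 h. They rose later, to 622 to 715 CPM in KO and 521 to 731 CPM in WT at 48 h, against 7.74 to 9.32 and 5.88 to 9.73 CPM at baseline. The clock score, the mean log2 level of 4 genes of the Arntl arm minus that of 8 genes of the Dbp arm, was 0.74 to 2.03 in KO and 1.25 to 2.02 in WT at 24 h, against -3.84 to -0.09 and -3.69 to -0.07 at baseline. At 30 h the score was -2.57 to -2.21 in KO and -3.22 to -3.13 in WT, inside the baseline ranges, while 22 and 12 members were called higher. At 48 h it was 1.17 to 2.48 in KO and 1.14 to 1.81 in WT, overlapping the range of 24 h, while 13 and 2 members were called higher. The part of these transcripts in the members' changes was not tested.

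**Figure D3:**
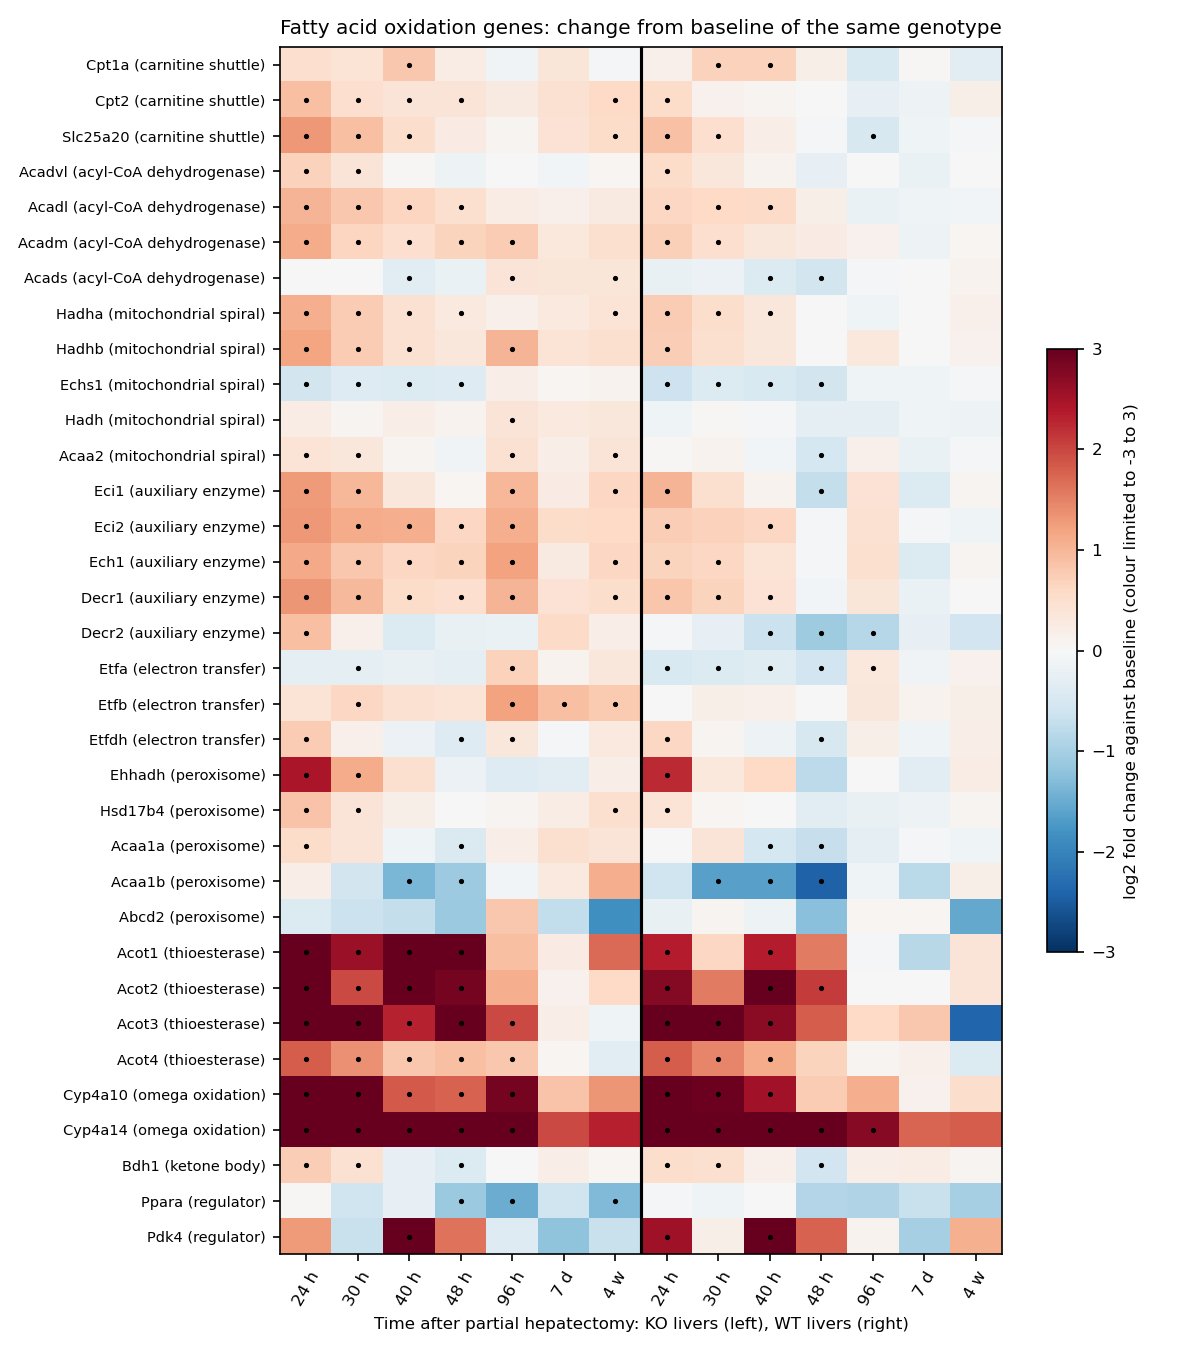
Log2 fold change from baseline of the 34 members (rows, grouped by role) at each time after surgery (columns), KO left of WT; the colours are limited to -3 to 3 and dots mark values called by edgeR at an adjusted p under 0.05. The Cyp4a rows hold the highest values, up to 6.69 for Cyp4a14 in WT at 24 h, and the Pdk4 row reached 3.66 in WT at 40 h. The Echs1 row is negative from 24 h to 48 h in both genotypes.

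The omega-oxidation genes Cyp4a14 and Cyp4a10, which encode fatty acid hydroxylases, had the largest responses. In KO livers Cyp4a14 read 6.12, 65.9 and 100.2 CPM at baseline, 3315, 4669.8 and 2862 CPM at 24 h and 1931, 3151 and 881 CPM at 30 h. Later KO libraries had 705, 919 and 1245 CPM at 40 h and 907, 629 and 1283 CPM at 48 h. In WT livers it read 6.35, 51.6 and 23.1 CPM at baseline, 2515, 2382 and 3508 CPM at 24 h and 1415 and 1089 CPM at 30 h. The next WT groups had 1152, 1291 and 1728 CPM at 40 h and 208 and 448 CPM at 48 h. Every library from 24 h to 48 h lay above every baseline library of its genotype, although the KO baseline libraries themselves spread from 6.12 to 100.2 CPM. The increase at 24 h was 5.97 ± 1.02 log2 units in KO (edgeR adjusted p = 6e-05) and 6.69 ± 1.06 in WT (adjusted p = 2.29e-05). At 48 h it was still 4.03 ± 0.93 in KO (edgeR adjusted p = 0.000999) and 3.60 ± 0.96 in WT (adjusted p = 0.00449). At 7 days the libraries read 289.6 and 168 CPM in KO and 34.6, 50.6 and 188 CPM in WT, and at 4 weeks 577, 94.5 and 198 CPM in KO and 190.3, 76.6 and 17.3 CPM in WT. None of these 4 groups was called different from baseline (edgeR adjusted p = 0.196 and 0.0856 in KO, 0.29 and 0.343 in WT), and the KO library of replicate 1 at 4 weeks stood well above the other two.

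Cyp4a10 had a similar course. In KO livers it read 25.6, 225 and 144 CPM at baseline, 2108, 2896 and 1710.3 CPM at 24 h and 1393, 1579 and 923 CPM at 30 h. After that the KO values were 356, 475 and 584 CPM at 40 h and 367, 340.5 and 648 CPM at 48 h. In WT livers it read 57.4, 167 and 151 CPM at baseline, 1598, 1685 and 2257 CPM at 24 h and 1069.8 and 856 CPM at 30 h. Then WT gave 703, 608 and 829 CPM at 40 h and 165 and 264 CPM at 48 h. All libraries at 24, 30 and 40 h exceeded those of their baseline, whereas at 48 h one WT library lay within the baseline range. The change at 24 h was 4.09 ± 0.68 in KO (edgeR adjusted p = 4.41e-05) and 3.88 ± 0.68 in WT (adjusted p = 8.29e-05). At 48 h it was 1.78 ± 0.62 in KO (edgeR adjusted p = 0.025) and 0.77 ± 0.67 in WT, where it missed the threshold (adjusted p = 0.412). The 48 h responses differed by 1.01 ± 0.92, which was not called (edgeR adjusted p = 0.895). The 7-day libraries read 240.3 and 234 CPM in KO and 138, 61.2 and 213 CPM in WT, and those of 4 weeks 514, 164 and 305 CPM in KO and 279.8, 162 and 101 CPM in WT. Cyp4a10 and Cyp4a14 lie in one cluster on chromosome 4 with close relatives, so reads that match several of them make the single values uncertain.

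**Figure D4:**
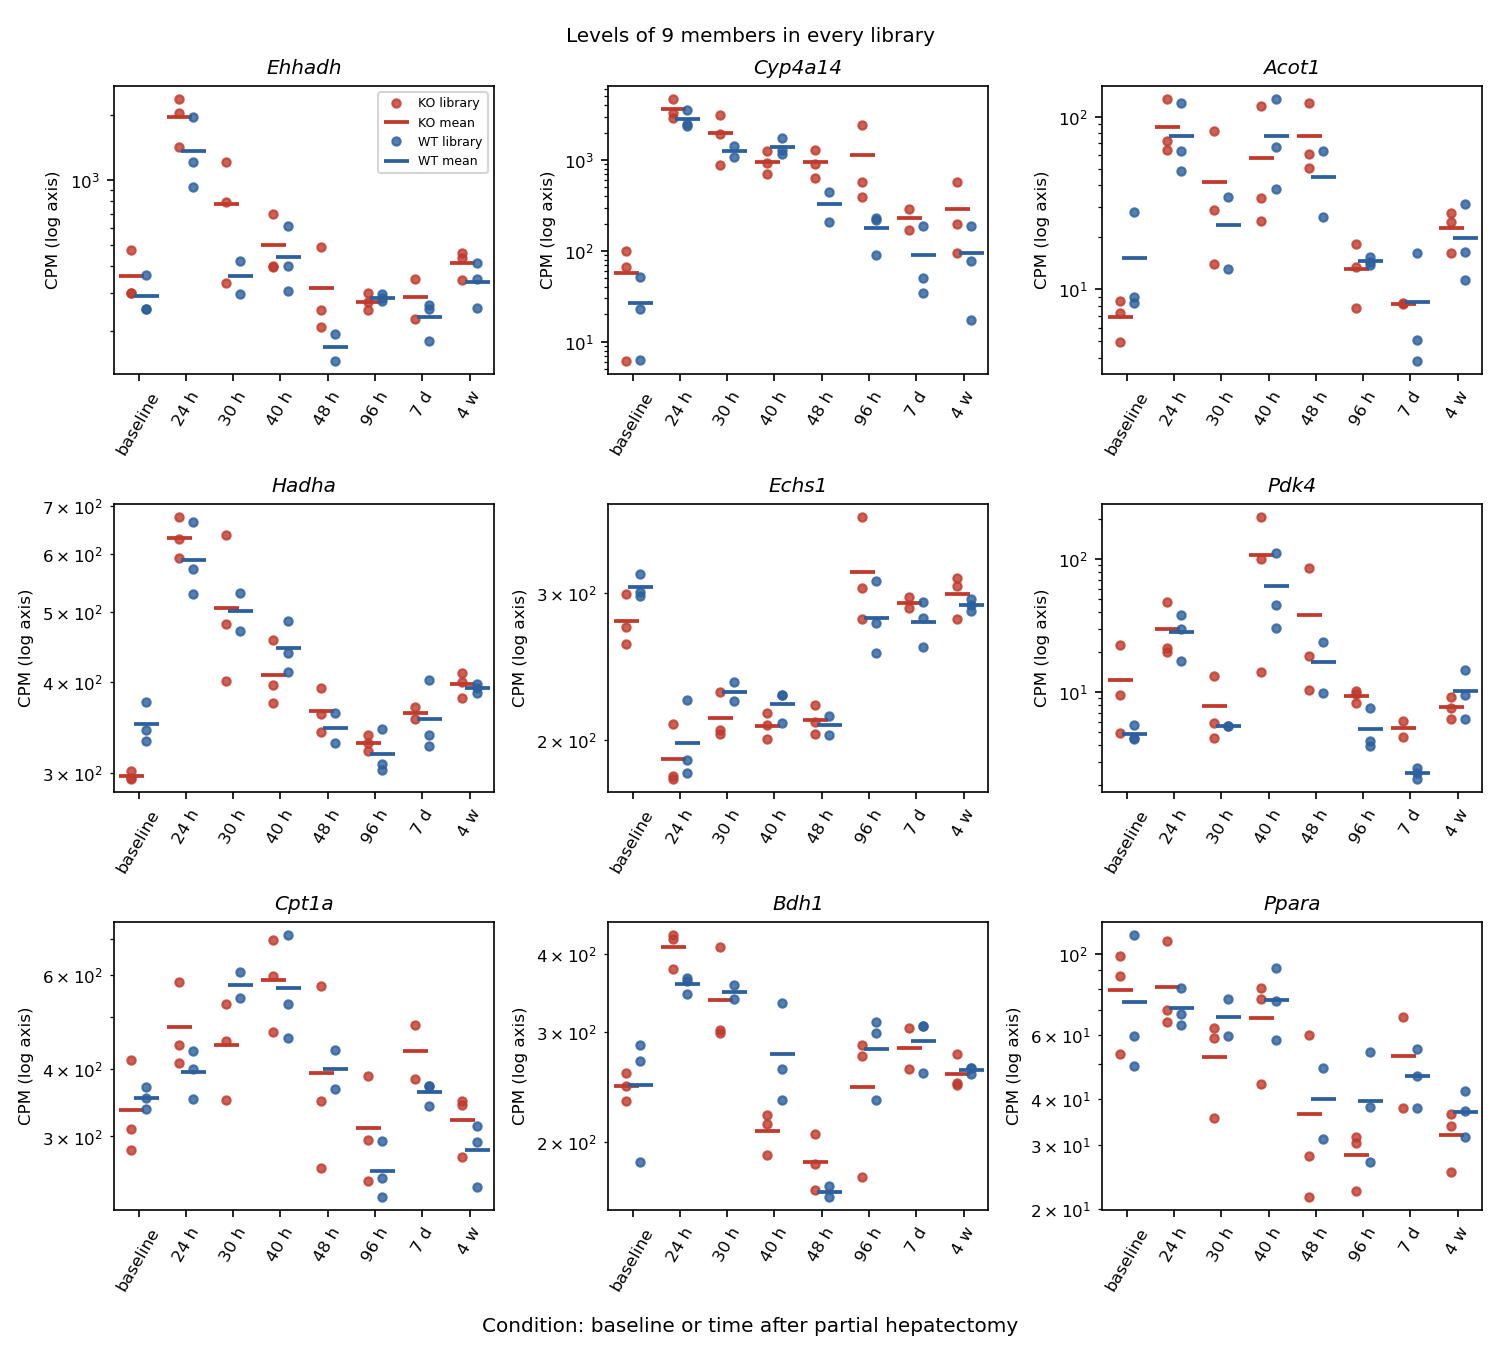
Level in every library (CPM, log axes) of 9 members at baseline and by time after surgery, KO points left of WT points (by their labels at 96 h), with group means as short lines. Cyp4a14 reached 4669.8 CPM in KO and 3508 CPM in WT at 24 h, while every Echs1 library from 24 h to 48 h lay below the baseline libraries of its genotype.

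The acyl-CoA thioesterases Acot1 to Acot4, which release free fatty acids from their CoA esters in the cytosol (Acot1), mitochondria (Acot2) and peroxisomes (Acot3 and Acot4), rose together: 4 of 4 were called higher at 24 h in each genotype. Acot4, among the members whose level varied most over time in WT, read 31.1, 28.9 and 23.4 CPM at 24 h and 6.68, 8.96 and 8.08 CPM at baseline in KO. WT libraries held 22.4, 26.6 and 35 CPM at 24 h and 6.5, 6.87 and 10.6 CPM at baseline, again without overlap. The change was 1.81 ± 0.28 in KO (edgeR adjusted p = 1.11e-05) and 1.81 ± 0.28 in WT (adjusted p = 1.38e-05). Afterwards KO libraries had 19.6, 21.6 and 19.7 CPM at 30 h, 12, 14.1 and 15.4 CPM at 40 h and 12.2, 14.3 and 18 CPM at 48 h. At the following times KO had 6.68 and 9.74 CPM at 7 days and 8.27, 5.5 and 5.23 CPM at 4 weeks. The WT libraries had 23.5 and 20.4 CPM at 30 h, 14.5, 13.8 and 23.8 CPM at 40 h and 14.1 and 11.1 CPM at 48 h. The remaining WT groups read 5.04, 7.18 and 14.5 CPM at 7 days and 6.88, 5.47 and 5.68 CPM at 4 weeks. Acot4 thus stayed above baseline to 48 h and overlapped baseline at 7 days and 4 weeks. At 48 h Acot4 was still called higher in KO (log2 fold change 0.90 ± 0.28, edgeR adjusted p = 0.0111), and missed the threshold in WT (log2 fold change 0.66 ± 0.31, edgeR adjusted p = 0.111). The difference between these responses was 0.24 ± 0.42 and was not called (edgeR adjusted p = 0.954).

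Acot1 averaged 87.4 ± 33.8 CPM at 24 h in KO, against 6.95 ± 1.82 CPM at baseline (log2 fold change 3.65 ± 0.72, edgeR adjusted p = 0.000324), and 77 ± 37.5 CPM in WT, against 15.1 ± 11.1 CPM (log2 fold change 2.35 ± 0.67, edgeR adjusted p = 0.0107; SD, n = 3 each). Its WT call at 24 h was lost without WT baseline replicate 1 or 2 or WT 24 h replicate 3, with log2 fold changes of 1.88 to 3.14 over the libraries left out. Acot2 had its highest mean at 40 h rather than 24 h in both genotypes, 20.7 ± 13.2 CPM in KO and 22.2 ± 16.5 CPM in WT. Acot3 rose by 3.75 ± 0.74 log2 units in KO (edgeR adjusted p = 0.00032) and 3.20 ± 0.72 in WT (adjusted p = 0.00135) at 24 h. The 4 genes lie side by side on chromosome 12 and resemble each other, so reads may be shared between them. None of them was called different from baseline at 7 days or 4 weeks in either genotype.

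Among the genes of the carnitine shuttle, the inner-membrane steps rose first and Cpt1a later. Cpt1a encodes the outer-membrane transferase that controls entry of long-chain fatty acids. KO libraries held 417, 283 and 309.6 CPM at baseline, 582, 444 and 410.4 CPM at 24 h, 452, 530.3 and 351 CPM at 30 h and 469, 697 and 596 CPM at 40 h. In KO these were followed by 262, 349.5 and 572 CPM at 48 h, 483 and 384 CPM at 7 days and 275, 349 and 343 CPM at 4 weeks. For WT the libraries gave 353, 371 and 337 CPM at baseline, 353, 399.9 and 433 CPM at 24 h, 607 and 544 CPM at 30 h and 529, 457 and 711 CPM at 40 h. Later WT libraries had 368 and 435 CPM at 48 h, 373, 373 and 342 CPM at 7 days and 241, 314 and 293 CPM at 4 weeks. The 24 h libraries overlapped those of baseline in both genotypes, and the change at 24 h did not pass the test (0.51 ± 0.21 in KO, edgeR adjusted p = 0.0773; 0.16 ± 0.21 in WT, adjusted p = 0.647). At 40 h every library lay above the baseline range in both genotypes, and Cpt1a was called higher (0.80 ± 0.21 in KO, edgeR adjusted p = 0.00297; 0.68 ± 0.21 in WT, adjusted p = 0.0109). In WT it was also called at 30 h (log2 fold change 0.70 ± 0.23, edgeR adjusted p = 0.0323). The WT 30 h call of Cpt1a was lost without WT 30 h replicate 2 or 3 or WT baseline replicate 1, 2 or 3. The WT 40 h call of Cpt1a was lost without WT 40 h replicate 3.

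Slc25a20, the carnitine and acylcarnitine carrier of the inner membrane whose promoter window is shown above, read 189, 226 and 190.2 CPM at 24 h in KO, against 80.0, 81.5 and 82.2 CPM at baseline. Its WT libraries read 167, 204 and 198 CPM at 24 h, against 99.7, 83.8 and 126 CPM at baseline. The groups did not overlap, and the changes were 1.31 ± 0.16 in KO (edgeR adjusted p = 9.59e-08) and 0.88 ± 0.15 in WT (adjusted p = 6.41e-05). Cpt2, the transferase of the inner face, averaged 250.3 ± 19.9 CPM in KO and 246 ± 35 CPM in WT at 24 h, against 133 ± 10.2 and 169 ± 30.6 CPM at baseline (SD, n = 3 each). It was called higher at 24 h in both (0.91 ± 0.14 in KO, edgeR adjusted p = 6.35e-06; 0.54 ± 0.14 in WT, adjusted p = 0.00376). Afterwards Cpt2 was called higher in KO at 30, 40 and 48 h, and in WT at none of these times. The differences between these responses were 0.36 ± 0.21, 0.31 ± 0.19 and 0.38 ± 0.21, and none was called by edgeR. Cpt2 libraries of KO and WT overlapped at these times, whereas all KO baseline libraries lay below those of WT.

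The acyl-CoA dehydrogenases catalyse the first step of each round, for very long (Acadvl), long (Acadl), medium (Acadm) and short (Acads) chains. At 24 h the first 3 rose in both genotypes, while Acads was called in neither. Acadl, second among the members by the joint WT test, read 337, 374 and 338 CPM at 24 h in KO, against 174, 164 and 176 CPM at baseline. WT livers had 292, 306 and 319 CPM at 24 h, against 200.4, 182 and 213 CPM at baseline. The libraries of each group lay close together and apart from baseline, with changes of 1.03 ± 0.11 in KO (edgeR adjusted p = 2.26e-08) and 0.62 ± 0.11 in WT (adjusted p = 7.79e-05). The later KO libraries read 276, 362 and 258 CPM at 30 h, 244, 274 and 286 CPM at 40 h and 243, 226 and 254 CPM at 48 h. The next KO groups had 188 and 195 CPM at 7 days and 213, 187 and 218 CPM at 4 weeks. Those of WT read 302 and 295 CPM at 30 h, 287, 274 and 329 CPM at 40 h and 233 and 217 CPM at 48 h. After that the WT values were 182, 161 and 206 CPM at 7 days and 196, 185 and 182 CPM at 4 weeks. Acadl was thus still called higher at 40 h in both genotypes, and at 48 h in KO (log2 fold change 0.49 ± 0.11, edgeR adjusted p = 0.000638) but not in WT (log2 fold change 0.18 ± 0.12, edgeR adjusted p = 0.283). The difference between these 48 h responses was 0.31 ± 0.17 and was not called (edgeR adjusted p = 0.821).

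Acadm read 543, 647 and 459.7 CPM at 24 h in KO, against 258, 231 and 277 CPM at baseline, and 418, 459 and 514 CPM at 24 h in WT, against 268, 261 and 324 CPM at baseline. Neither pair overlapped, and the changes were 1.11 ± 0.16 in KO (edgeR adjusted p = 2.48e-06) and 0.71 ± 0.16 in WT (adjusted p = 0.00108). At the later times KO libraries had 362, 538 and 299 CPM at 30 h, 337, 353 and 403 CPM at 40 h and 407, 371 and 432 CPM at 48 h. Then KO gave 315 and 316 CPM at 7 days and 366, 327 and 367 CPM at 4 weeks. In WT livers the values were 452 and 360.1 CPM at 30 h, 336, 369 and 371 CPM at 40 h and 352 and 319.8 CPM at 48 h. At the following times WT had 253, 243 and 268 CPM at 7 days and 294, 299 and 293 CPM at 4 weeks. Acadvl rose by 0.70 ± 0.12 in KO (edgeR adjusted p = 2.27e-05) and 0.55 ± 0.12 in WT (adjusted p = 0.000595) at 24 h and was called at neither 40 h nor 48 h. Acads moved the other way at 40 h, when it was lower than baseline in KO (log2 fold change -0.31 ± 0.11, edgeR adjusted p = 0.0251) and in WT (log2 fold change -0.42 ± 0.11, edgeR adjusted p = 0.0025).

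The later steps of the mitochondrial spiral split. Hadha and Hadhb, with the stretch between their GENCODE starts shown above, rose together at 24 h. In KO the changes were 1.09 ± 0.12 and 1.18 ± 0.17 log2 units (edgeR adjusted p = 2.22e-08 and 3.3e-06). In WT they were 0.75 ± 0.12 and 0.74 ± 0.17 (edgeR adjusted p = 1.24e-05 and 0.00159). Hadha read 631, 675 and 593 CPM at 24 h in KO, against 295, 294 and 302 CPM at baseline, and 530.0, 572 and 665 CPM at 24 h in WT, against 344, 332 and 375 CPM at baseline. Hadhb read 393, 474 and 365 CPM at 24 h in KO, against 186, 178 and 179 CPM at baseline, and 323, 368 and 419 CPM at 24 h in WT, against 229.6, 197 and 239 CPM at baseline. In all 4 comparisons the lowest library at 24 h stood above the highest at baseline.

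Echs1, the short-chain enoyl-CoA hydratase, fell. KO libraries had 299, 260.5 and 273 CPM at baseline, 181, 209 and 179.6 CPM at 24 h, 203, 206 and 228 CPM at 30 h and 208, 215 and 201 CPM at 40 h. The remaining KO groups read 210.2, 204 and 220.5 CPM at 48 h, 288 and 297 CPM at 7 days and 313, 279.6 and 306 CPM at 4 weeks. WT libraries held 301, 298 and 316 CPM at baseline, 189.5, 223 and 183 CPM at 24 h, 235 and 223 CPM at 30 h and 209.5, 227 and 227 CPM at 40 h. In WT these were followed by 214 and 203 CPM at 48 h, 293, 259 and 279.8 CPM at 7 days and 291, 286 and 295 CPM at 4 weeks. Every library from 24 to 48 h lay under every baseline library of its genotype, and all libraries at 7 days and 4 weeks lay above that early range. The decrease at 24 h was -0.55 ± 0.10 in KO (edgeR adjusted p = 5.87e-05) and -0.62 ± 0.10 in WT (adjusted p = 1.08e-05), and it was called at all 4 times up to 48 h in both. Hadh, the short-chain hydroxyacyl-CoA dehydrogenase, was called at no time other than 96 h in the library group labelled KO, with means of 336 ± 41.9 CPM in KO and 317 ± 45.9 CPM in WT at 24 h, against 287 ± 17.2 and 348 ± 57.6 CPM at baseline (SD, n = 3 each). Acaa2, a mitochondrial thiolase, was called higher at 24 h in KO (log2 fold change 0.40 ± 0.12, edgeR adjusted p = 0.0134), a call lost without KO baseline replicate 2 or KO 24 h replicate 2, and not in WT (log2 fold change 0.04 ± 0.12, edgeR adjusted p = 0.843). The difference between these responses was 0.36 ± 0.17 and was not called (edgeR adjusted p = 1).

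The auxiliary enzymes, which move or reduce double bonds so that unsaturated chains can be oxidised, were called higher at 24 h for 5 of 5 members in KO and 4 of 5 in WT. Eci1, a mitochondrial enoyl-CoA isomerase, ranked first among the members by the joint WT test. KO libraries had 89, 84.4 and 89.6 CPM at baseline, 203, 183 and 246 CPM at 24 h, 179.8, 217 and 125 CPM at 30 h and 109.6, 96.1 and 129 CPM at 40 h. Later KO libraries had 86.2, 79.1 and 109.9 CPM at 48 h, 97.5 and 109 CPM at 7 days and 139.5, 118 and 144 CPM at 4 weeks. For WT the libraries gave 111, 108 and 125 CPM at baseline, 225, 208 and 259 CPM at 24 h, 175 and 143 CPM at 30 h and 107, 143 and 121 CPM at 40 h. The next WT groups had 72.3 and 67.8 CPM at 48 h, 96.7, 72.6 and 89.9 CPM at 7 days and 135, 114 and 116 CPM at 4 weeks. Both genotypes stood well above baseline at 24 h (1.27 ± 0.18 in KO, edgeR adjusted p = 2.93e-06; 1.01 ± 0.18 in WT, adjusted p = 8.74e-05). At 48 h both WT libraries lay below every WT baseline library (log2 fold change -0.71 ± 0.21, edgeR adjusted p = 0.00786), while KO libraries overlapped their baseline (log2 fold change 0.07 ± 0.18, edgeR adjusted p = 0.808). These 48 h responses differed by 0.78 ± 0.27, which was not called (edgeR adjusted p = 0.794).

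Decr1, the mitochondrial dienoyl-CoA reductase, read 384, 461 and 379.5 CPM at 24 h in KO, against 169, 149 and 169 CPM at baseline. Its WT libraries read 337, 358 and 386 CPM at 24 h, against 202, 187 and 216 CPM at baseline. The groups were apart, with changes of 1.33 ± 0.16 in KO (edgeR adjusted p = 6.75e-08) and 0.83 ± 0.15 in WT (adjusted p = 0.000112). Afterwards KO libraries had 296, 385 and 274 CPM at 30 h, 228, 223 and 262 CPM at 40 h and 213, 217 and 262 CPM at 48 h. After that the KO values were 207 and 229.9 CPM at 7 days and 247, 213 and 236 CPM at 4 weeks. The WT libraries had 342 and 303 CPM at 30 h, 248, 270.1 and 296 CPM at 40 h and 198 and 183 CPM at 48 h. Then WT gave 178, 148 and 201 CPM at 7 days and 228, 202 and 187 CPM at 4 weeks. Decr1 was thus called higher to 48 h in KO and to 40 h in WT. At 48 h its responses differed by 0.59 ± 0.23 between the genotypes, which was not called (edgeR adjusted p = 0.794). Eci2, an isomerase of peroxisomes and mitochondria, and Ech1, a dienoyl-CoA isomerase, rose by 1.31 ± 0.24 and 1.13 ± 0.19 in KO and by 0.73 ± 0.24 and 0.67 ± 0.19 in WT at 24 h (edgeR adjusted p = 0.000104, 3.7e-05, 0.0231 and 0.00951). The WT 24 h call of Eci2 was lost without WT 24 h replicate 3 or WT baseline replicate 2 or 3. Decr2, the peroxisomal reductase, passed the test in KO and not in WT. It averaged 226 ± 47.8 CPM at 24 h in KO, against 121 ± 10.7 CPM at baseline (log2 fold change 0.91 ± 0.21, edgeR adjusted p = 0.00144), and 173 ± 14.9 CPM in WT, against 181 ± 37.9 CPM (log2 fold change -0.06 ± 0.21, edgeR adjusted p = 0.871; SD, n = 3 each). The difference between the responses was 0.97 ± 0.29 log2 units (edgeR adjusted p = 1), and no other member had a smaller unadjusted p for its response at 24 h.

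Of the electron-transfer genes, Etfa and Etfb encode the subunits of the flavoprotein and Etfdh the dehydrogenase that passes its electrons to ubiquinone. Etfdh rose at 24 h in both genotypes (0.76 ± 0.14 in KO, edgeR adjusted p = 0.000147; 0.62 ± 0.14 in WT, adjusted p = 0.00164) and was lower than baseline at 48 h in both (-0.39 ± 0.14 in KO, edgeR adjusted p = 0.0301; -0.48 ± 0.16 in WT, adjusted p = 0.0209). Etfa read 260.3, 282 and 279 CPM at 24 h in KO, against 340.2, 321 and 347 CPM at baseline, and 277, 292 and 269 CPM at 24 h in WT, against 400.4, 351 and 396 CPM at baseline. Both pairs were apart, with the 24 h libraries lower. The change passed the test in WT (log2 fold change -0.45 ± 0.12, edgeR adjusted p = 0.00432) and not in KO (log2 fold change -0.29 ± 0.12, edgeR adjusted p = 0.0652). These responses differed by 0.16 ± 0.17, which was not called. Etfb lay at 14.7 to 16.5 CPM in KO and 19.3 to 21.5 CPM in WT at baseline, and was called in KO at 30 h (log2 fold change 0.61 ± 0.19, edgeR adjusted p = 0.0121), 7 days and 4 weeks and in libraries labelled KO at 96 h, and in WT at no time.

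Of the peroxisomal genes, 3 of 5 were called higher at 24 h in KO and 2 of 5 in WT, and none lower; Ehhadh had the largest change. It encodes the bifunctional enzyme of the L-hydroxy pathway, a classic PPARα target in rodents. Its KO libraries read 302, 477 and 301 CPM at baseline, 2049.8, 2369.9 and 1431 CPM at 24 h, 791, 1210.3 and 336 CPM at 30 h and 402, 397 and 698 CPM at 40 h. At the following times KO had 252, 209.7 and 491 CPM at 48 h, 350.0 and 229 CPM at 7 days and 462, 345 and 438 CPM at 4 weeks. WT livers had 254, 254 and 365 CPM at baseline, 1210.4, 929 and 1958 CPM at 24 h, 422 and 298 CPM at 30 h and 308, 401 and 614 CPM at 40 h. The remaining WT groups read 194 and 146 CPM at 48 h, 253, 179.7 and 265 CPM at 7 days and 413, 350.0 and 256 CPM at 4 weeks. The lowest 24 h library (929 CPM, in WT) stood above the highest baseline library (477 CPM, in KO). At 48 h both WT libraries lay under all WT baseline libraries, an arrangement found in 25.3% of all genes. That WT change was not called (log2 fold change -0.78 ± 0.40, edgeR adjusted p = 0.146). The increase at 24 h was 2.44 ± 0.37 log2 units in KO (edgeR adjusted p = 8.76e-06) and 2.23 ± 0.37 in WT (adjusted p = 3.1e-05). At 30 h it was called in KO (log2 fold change 1.11 ± 0.35, edgeR adjusted p = 0.0153) and not in WT (log2 fold change 0.31 ± 0.39, edgeR adjusted p = 0.651), with a difference of 0.81 ± 0.53 between the responses that was not called (adjusted p = 0.705).

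Hsd17b4, the bifunctional enzyme of the D-hydroxy pathway, rose less at 24 h (0.85 ± 0.14 in KO, edgeR adjusted p = 1.48e-05; 0.42 ± 0.13 in WT, adjusted p = 0.02). The WT call was lost without WT 24 h replicate 3 or WT baseline replicate 1 or 2. The thiolases Acaa1a and Acaa1b, near-copies on chromosome 9 that can share reads, fell below baseline later. Acaa1b was lower at 40 h in KO (log2 fold change -1.36 ± 0.38, edgeR adjusted p = 0.00566) and in WT (log2 fold change -1.62 ± 0.39, edgeR adjusted p = 0.00123), and at 48 h in WT its libraries read 111 and 115 CPM, against 505, 316 and 1006 CPM at baseline (log2 fold change -2.43 ± 0.47, edgeR adjusted p = 0.000127). Acaa1a, which was higher at 24 h in KO (log2 fold change 0.55 ± 0.16, edgeR adjusted p = 0.0129), was lower at 48 h in KO (log2 fold change -0.43 ± 0.16, edgeR adjusted p = 0.0399) and in WT (log2 fold change -0.68 ± 0.19, edgeR adjusted p = 0.00489). The KO 24 h call of Acaa1a was lost without KO 24 h replicate 2 or KO baseline replicate 2. Abcd2, a peroxisomal importer of very long-chain acyl-CoA that is low in liver, was called at no single time against baseline and at no condition between KO and WT. Its joint test over all 7 times passed in KO with the 96 h libraries (edgeR adjusted p = 0.0079) and not without them (adjusted p = 0.171). KO libraries had 33.4, 19.7 and 26.9 CPM at baseline, 28.1, 15.7 and 15.9 CPM at 24 h, 15.3, 30.1 and 5.58 CPM at 30 h and 12.4, 20.5 and 16 CPM at 40 h. In KO these were followed by 17.1, 7.27 and 12.5 CPM at 48 h, 15.1 and 16.7 CPM at 7 days and 9.75, 7.81 and 5.02 CPM at 4 weeks. In WT livers the values were 26.5, 13.4 and 3.97 CPM at baseline, 11.9, 12 and 13.8 CPM at 24 h, 19.2 and 12.1 CPM at 30 h and 16.3, 12.3 and 10.8 CPM at 40 h. Later WT libraries had 8.26 and 3.97 CPM at 48 h, 4.57, 11.5 and 30.0 CPM at 7 days and 4.47, 7.64 and 2.69 CPM at 4 weeks. Its libraries spread several-fold within groups, and the lowest group means were those of 4 weeks in both genotypes.

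Bdh1, the mitochondrial dehydrogenase that turns acetoacetate into 3-hydroxybutyrate in the last step of ketogenesis, rose and then fell. In KO livers the values were 258, 233 and 246 CPM at baseline, 423, 429 and 379 CPM at 24 h, 303, 411 and 299 CPM at 30 h and 214, 221 and 191 CPM at 40 h. The next KO groups had 184, 168 and 206 CPM at 48 h, 304 and 262 CPM at 7 days and 249, 247 and 276 CPM at 4 weeks. WT libraries held 286, 269 and 186 CPM at baseline, 345, 362 and 367 CPM at 24 h, 356 and 339 CPM at 30 h and 262, 233 and 335 CPM at 40 h. After that the WT values were 170.1 and 163 CPM at 48 h, 307, 258 and 307 CPM at 7 days and 263, 257 and 263 CPM at 4 weeks. The 24 h libraries lay above all baseline libraries of their genotype and the 48 h libraries below them. The change at 24 h was 0.74 ± 0.16 in KO (edgeR adjusted p = 0.000526) and 0.53 ± 0.15 in WT (adjusted p = 0.0108; lost without WT baseline replicate 3), and at 48 h -0.40 ± 0.15 in KO (edgeR adjusted p = 0.0403) and -0.57 ± 0.18 in WT (adjusted p = 0.0122). The KO 48 h call of Bdh1 was lost without KO baseline replicate 1 or 3 or KO 48 h replicate 1 or 2. The WT 48 h call of Bdh1 was lost without WT baseline replicate 1 or WT 48 h replicate 2 or 3.

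Ppara is the gene of the receptor that drives many of the members. KO libraries had 98.6, 86.7 and 53 CPM at baseline, 108, 65 and 70.1 CPM at 24 h, 62.5, 58.7 and 35.5 CPM at 30 h and 44.1, 75.1 and 80.7 CPM at 40 h. Then KO gave 21.5, 27.9 and 59.9 CPM at 48 h, 67.2 and 37.7 CPM at 7 days and 25.2, 33.6 and 36.5 CPM at 4 weeks. For WT the libraries gave 49.3, 112 and 59.4 CPM at baseline, 68.3, 63.8 and 80.6 CPM at 24 h, 59.3 and 74.9 CPM at 30 h and 58, 74 and 91.4 CPM at 40 h. At the following times WT had 31 and 48.7 CPM at 48 h, 37.7, 54.9 and 46.1 CPM at 7 days and 31.4, 42 and 37.1 CPM at 4 weeks. At 24 h the libraries overlapped baseline in both genotypes, and the change was 0.03 ± 0.34 in KO and -0.06 ± 0.34 in WT (edgeR adjusted p = 0.96 and 0.936). It was lower than baseline in libraries labelled KO at 96 h, and in KO at 48 h (log2 fold change -1.12 ± 0.35, edgeR adjusted p = 0.0114) and 4 weeks (log2 fold change -1.32 ± 0.35, edgeR adjusted p = 0.0198), and was called at no single time in WT, where the 48 h change was -0.89 ± 0.40 (adjusted p = 0.0888). The KO 48 h call of Ppara was lost without KO baseline replicate 1 or KO 48 h replicate 1 or 2. The KO 4-week call of Ppara was lost without KO baseline replicate 1 or 2 or KO 4-week replicate 1. The spread of the baseline libraries limits these calls, since they ran from 53 to 98.6 CPM in KO and from 49.3 to 112 CPM in WT.

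Pdk4, a kinase that shuts off pyruvate dehydrogenase when fat is burned, had its highest mean at 40 h. KO libraries held 9.5, 22.7 and 4.94 CPM at baseline, 20.1, 21.5 and 47.7 CPM at 24 h, 5.91, 13.2 and 4.53 CPM at 30 h and 14.1, 101 and 206 CPM at 40 h. The remaining KO groups read 10.4, 18.6 and 85.1 CPM at 48 h, 6.09 and 4.62 CPM at 7 days and 9.24, 6.32 and 7.56 CPM at 4 weeks. Its WT libraries read 4.53, 5.72 and 4.43 CPM at baseline, 17.3, 29.9 and 38.3 CPM at 24 h, 5.55 and 5.57 CPM at 30 h and 30.3, 44.9 and 112 CPM at 40 h. In WT these were followed by 23.7 and 9.85 CPM at 48 h, 2.48, 2.23 and 2.68 CPM at 7 days and 14.6, 9.49 and 6.34 CPM at 4 weeks. KO libraries at 40 h ran from inside the baseline range to several times above it, while all WT libraries at 24 h and 40 h exceeded WT baseline. Pdk4 was called higher at 40 h in KO (log2 fold change 3.12 ± 0.73, edgeR adjusted p = 0.00107) and in WT (log2 fold change 3.66 ± 0.78, edgeR adjusted p = 0.000409), and at 24 h in WT (log2 fold change 2.54 ± 0.77, edgeR adjusted p = 0.0157; lost without WT 24 h replicate 3 or WT baseline replicate 1 or 3) but not in KO (log2 fold change 1.27 ± 0.70, edgeR adjusted p = 0.198). The responses at 24 h differed by -1.27 ± 1.03 between the genotypes, which was not called (edgeR adjusted p = 1). At 30 h, KO and WT libraries lay at 4.53 to 13.2 and 5.55 to 5.57 CPM.

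Per transcript length, in the deposited FPKM values, the order of the members changed with the response. At WT baseline Acaa2 had the highest mean FPKM of the members (574), followed by Acaa1b (412), Etfb (319), Etfa (246) and Ech1 (225), and the lowest were Acot3 (0.987), Pdk4 (1.11) and Acot2 (1.54). At 24 h in WT, Cyp4a14 (996 FPKM, against 9.05 at baseline) and Cyp4a10 (821, against 52.8) were the highest of the 34, ahead of Acaa2 (646) and Ehhadh (401). In rank, Cyp4a14 stood 1 at 24 h and 29 at baseline, Cyp4a10 2 and 25, and Ehhadh 4 and 20, while Echs1 stood 21 at 24 h and 7 at baseline. In KO the means of Cyp4a14, Cyp4a10 and Ehhadh at 24 h were 1347, 1054 and 597 FPKM, against 21.4, 61.8 and 109.8 FPKM at baseline. These are orders of group means, and neighbours in the order were not tested against each other.

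At 7 days no member was called in WT by edgeR, where 2.25% and 1.31% of all genes were called higher and lower. When the 96 h libraries were left out of the fit, 1 member was called lower. At an unadjusted p under 0.05, 0 members were higher and 3 lower, and the share of all genes at that threshold is not given here. In KO 1 member was called higher, Etfb (log2 fold change 0.91 ± 0.21, edgeR adjusted p = 0.00925), and none lower, against 3.06% and 2.5% of all genes; the call was lost without KO replicate 3. At 4 weeks no member was called in WT by edgeR, where 0.433% and 0.738% of all genes were called higher and lower. By limma on FPKM, 1 member was called lower. At an unadjusted edgeR p under 0.05, 1 member was higher and 4 lower, again without a share of all genes at that threshold. In KO at 4 weeks 10 members were called higher and 1 lower, against 4.29% and 4.28% of all genes. The higher ones were Cpt2, Slc25a20, Acads, Hadha, Acaa2, Eci1, Ech1, Decr1, Etfb and Hsd17b4, with log2 fold changes of 0.36 to 0.78, and the lower one was Ppara. Hadha, for example, read 412, 381 and 401 CPM at 4 weeks, against 295, 294 and 302 CPM at KO baseline, without overlap (log2 fold change 0.42 ± 0.12, edgeR adjusted p = 0.0236). These 11 calls rested on few libraries: 1 was left without KO replicate 1, 3 without KO replicate 3, 2 without KO baseline replicate 1 or 2, and 3 without KO baseline replicate 3. The KO library of replicate 1 at 4 weeks had 1852 CPM of acute-phase markers, against 121 and 66.7 CPM in the other KO libraries of that time, whose part was not tested. The difference of the 4-week responses between the genotypes was called for no member by edgeR. At an unadjusted p under 0.05 there were 12 members, all higher in KO, against 2.84% of all genes.

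KO and WT livers were then compared at each condition. At baseline no member was called (edgeR; 0 higher and 9 lower in KO at an unadjusted p under 0.05, where 0.0852% of all genes were called and 3.54% were lower at an unadjusted p under 0.05). In 15 of the 34 members, all KO baseline libraries lay below all WT baseline libraries, an arrangement found in 7.07% of all genes, and in none did they lie above (6.56% of all genes). The 15 were Cpt2, Slc25a20, Acadl, Hadha, Hadhb, Acaa2, Eci1, Eci2, Ech1, Decr1, Decr2, Etfa, Etfb, Hsd17b4 and Acaa1a. The differences ran from -1.11 log2 units for Acot1 to 1.33 for Pdk4, whose libraries overlapped, with a median of -0.22 over the 34 members and 0 over all genes. Among the 15, for example, the difference was -0.59 ± 0.21 for Decr2 (edgeR adjusted p = 0.535), -0.32 ± 0.12 for Acaa2 (adjusted p = 0.555) and -0.35 ± 0.14 for Cpt2 (adjusted p = 0.57). Decr2 read 133, 115 and 114 CPM in KO and 195, 138 and 210.3 CPM in WT at baseline. After surgery all KO libraries lay above all WT libraries in 4 members at 24 h (4.59% of all genes), none at 30 h (15.4%) or 40 h (5%), 9 at 48 h (9.99%), 10 at 7 days (9.24%) and 6 at 4 weeks (6.84%). They lay below in 2 members at 30 h (12.2% of all genes) and 3 at 40 h (6.45%), and in none at 24 h (4.29%), 48 h (7.91%), 7 days (9.07%) or 4 weeks (7.02%). The clock scores of the baseline libraries were -3.84, -0.09 and -1.56 in KO and -3.47, -3.69 and -0.07 in WT. Their part in the baseline differences was not tested.

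After surgery the members' median difference between KO and WT was 0.13 log2 units at 24 h, 0.01 at 30 h, -0.12 at 40 h, 0.16 at 48 h, 0.16 at 7 days and 0.15 at 4 weeks, and no member was called at any of these times by edgeR, DESeq2 or limma on FPKM. Of all genes, 0.0426%, 0.937%, 0.142%, 0.135%, 0.135% and 0.22% were called at these times. By edgeR at an unadjusted p under 0.05 there were 0, 1, 1, 1, 1 and 0 members at these times, where 3.36%, 10.7%, 5.59%, 4.98%, 5.49% and 4.82% of all genes had such a p. Averaged over the 7 conditions other than 96 h, 1 member was called, Ehhadh, higher in KO by 0.52 ± 0.14 log2 units (edgeR adjusted p = 0.0438), where 1.6% of all genes were called higher. That call was lost in 22 of the 39 refits that each left out 1 library, where the difference stayed between 0.45 and 0.57, and without the 96 h libraries in the fit. The response to surgery, KO change minus WT change, differed for no member at any of the 7 times (edgeR; DESeq2 called 4 at 96 h and 0 at the others, and edgeR 8 at 96 h without replicate 3 labelled KO), where 0%, 0.0355%, 0%, 0%, 2.91%, 0% and 0.0071% of all genes were called. In the joint test over 7 times 0 members were called, where 1.41% of all genes were. At an unadjusted p under 0.05 there were 2 members in that test, and the share of all genes at that threshold is not given here. The median of that difference was 0.35 at 24 h, 0.22 at 30 h, 0.12 at 40 h, 0.38 at 48 h, 0.54 at 96 h, 0.38 at 7 days and 0.41 at 4 weeks; the 7 values share the baseline libraries, in which KO lay lower. With unadjusted p under 0.05 there were 7, 0, 0, 7, 16, 10 and 12 members at these times, all with the larger value in KO, where 1.7%, 5.07%, 0.958%, 2.89%, 8.96%, 3.34% and 2.84% of all genes had such a p and the larger value in KO.

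**Figure D5:**
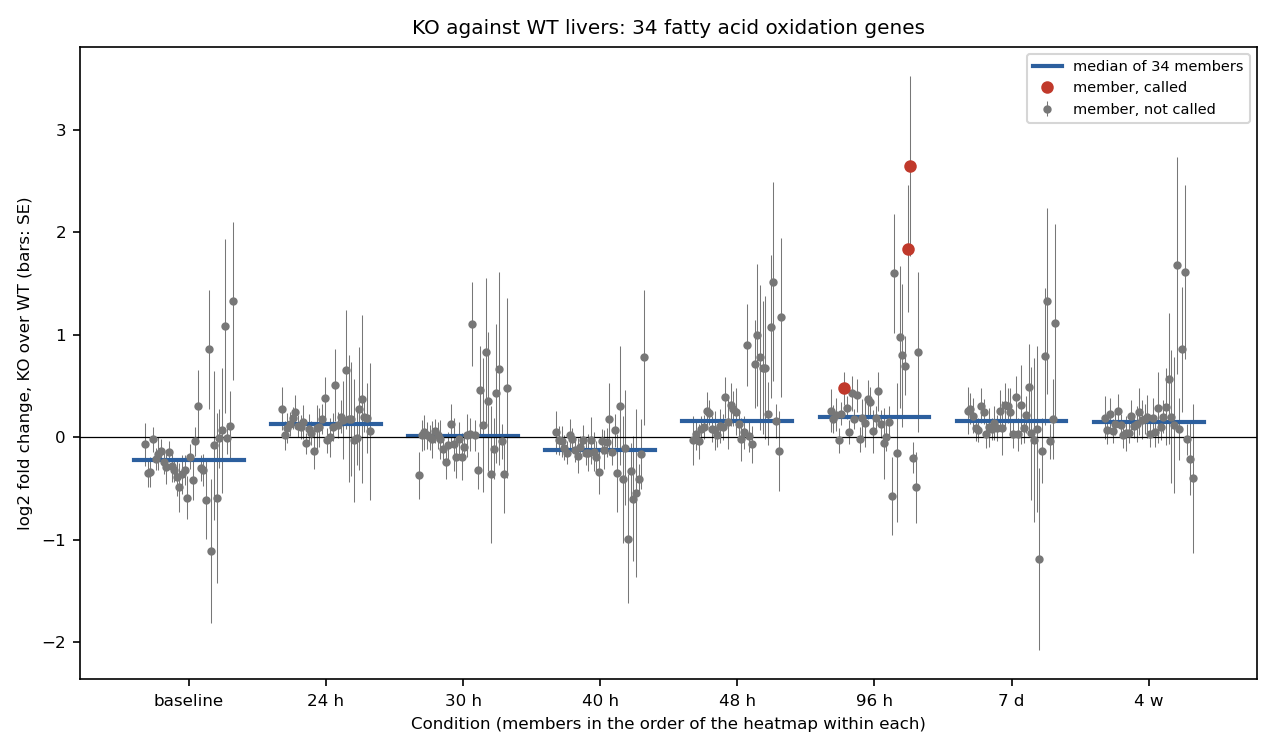
Difference between KO and WT (log2, KO minus WT) of each of the 34 members at each condition; the blue lines are medians, bars are ± SE, and red points are called by edgeR at an adjusted p under 0.05. Called points stand only at 96 h (Acadm, Cyp4a14 and Cyp4a10), between libraries labelled KO and WT.

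At 96 h, 16 members were called higher and 1 lower than KO baseline in libraries labelled KO (21.9% and 22.1% of all genes), and 2 higher and 2 lower than WT baseline in libraries labelled WT (12.8% and 14.6%). Between the labels, 3 members were called, all higher in libraries labelled KO, where 7.22% of all genes were called higher. Acadm read 559, 377 and 351 CPM in libraries labelled KO and 304, 330.5 and 289.8 CPM in libraries labelled WT (log2 fold change 0.48 ± 0.16, edgeR adjusted p = 0.0376). Cyp4a14 read 2407, 572 and 396 CPM in libraries labelled KO and 219, 229 and 90.2 CPM in libraries labelled WT (log2 fold change 2.65 ± 0.88, edgeR adjusted p = 0.0403). Cyp4a10 read 2143, 435 and 296 CPM in libraries labelled KO and 258, 357 and 187 CPM in libraries labelled WT (log2 fold change 1.84 ± 0.62, edgeR adjusted p = 0.0452). The libraries of Acadm and Cyp4a14 did not overlap between the labels and those of Cyp4a10 did, and replicate 1 labelled KO was the highest library for all 3. Over the 34 members, 0 were called without that library, 0 without replicate 3 labelled WT, 1 without replicate 1 labelled WT and 12 without replicate 3 labelled KO. With all libraries DESeq2 called 5 and limma on FPKM 0 or 1, by pseudocount. Against WT baseline, 1 was called without WT baseline replicate 3 or replicate 1 labelled WT, and 2 without replicate 2 labelled WT. The same library had 328260 CPM of hepatocyte markers, against 194095 and 195428 CPM in the other libraries labelled KO and 96923 to 165149 CPM in those labelled WT. Acute-phase markers summed to 1465 to 6138 CPM in libraries labelled KO and 78.3 to 119 CPM in those labelled WT, and proliferation markers to 28.5 to 81.1 and 8.51 to 21.9 CPM. Kupffer cell markers summed to 411 to 736 CPM in libraries labelled KO and 226 to 325 CPM in those labelled WT (1 of 8 called higher), and monocyte and neutrophil markers to 83.1 to 126.9 and 55.7 to 63.2 CPM (2 of 7 called higher). The part of these differences, and of the labels, in the members' differences was not tested.

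The remaining landmark members read as follows in the 96 h libraries. Eci1 had 245, 143 and 137 CPM in libraries labelled KO and 152, 174 and 136 CPM in libraries labelled WT. Acadl had 228, 195 and 178 CPM with the label KO and 189, 167 and 157 CPM with the label WT. Acot4 had 19.4, 12.3 and 10.1 CPM with the label KO and 9.5, 9.8 and 6.24 CPM with the label WT. Acot4 did not overlap between the labels, Acadl and Eci1 did, and none of these 3 was called. Decr1 had 422, 311 and 262 CPM in libraries labelled KO and 259, 324 and 202 CPM in libraries labelled WT, and Echs1 369.8, 304 and 279 CPM with the label KO and 255, 309.9 and 277 CPM with the label WT, overlapping in both genes. Cpt1a had 296, 389 and 248 CPM with the label KO and 231, 294 and 251 CPM with the label WT. Ehhadh gave 251, 274 and 299 CPM with the label KO and 286, 298 and 275 CPM with the label WT. Bdh1 gave 176, 275 and 286 CPM with the label KO and 299.7, 312 and 234 CPM with the label WT, and the libraries of these 3 genes overlapped. Ppara read 22.3, 30.2 and 31.5 CPM with the label KO and 26.9, 53.8 and 38.1 CPM with the label WT, again with overlap. Pdk4 read 9.73, 8.26 and 10.3 CPM with the label KO and 4.32, 3.94 and 7.66 CPM with the label WT, and Abcd2 53.7, 60.3 and 26.3 CPM with the label KO and 26.3, 12.2 and 7.45 CPM with the label WT. Pdk4 did not overlap between the labels, and in Abcd2 the nearest libraries were equal after rounding; none of these 6 was called between the labels. Over all 34 members, 6 had every library labelled KO above every library labelled WT and 1 had every one below, against 12.2% and 11.8% of all genes.

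A further 51 genes of fatty acid uptake, oxidation, ketone metabolism and lipid storage were listed beside the members, and 50 were tested. At 24 h, 16 were called higher and 11 lower than baseline in KO (11.5% and 12.2% of all genes tested). In WT, 11 were higher and 13 lower (10.5% and 11.9% of all genes), so that these neighbours of the pathway were called in both directions. In KO the largest increases were those of Cyp4a31, a further Cyp4a gene (4.32 ± 0.48, edgeR adjusted p = 7.66e-08), Cidec, a lipid droplet protein (3.70 ± 0.57, edgeR adjusted p = 9.75e-06), and Crat, the carnitine acetyltransferase (2.82 ± 0.39, edgeR adjusted p = 2.26e-06). In WT they were those of Cyp4a31 (4.72 ± 0.50, edgeR adjusted p = 4.6e-08), Fgf21, a fasting hormone of the liver (3.53 ± 1.05, edgeR adjusted p = 0.0143), and Cidec (2.65 ± 0.56, edgeR adjusted p = 0.000629). The largest decreases in KO were those of Aacs, which activates acetoacetate for lipid synthesis (-3.20 ± 0.50, edgeR adjusted p = 1.88e-05), Bdh2, a cytosolic dehydrogenase (-2.30 ± 0.29, edgeR adjusted p = 3.51e-07), and Acacb, the acetyl-CoA carboxylase whose product inhibits CPT1 (-2.08 ± 0.35, edgeR adjusted p = 4.27e-05). In WT they were those of Aacs (-2.84 ± 0.49, edgeR adjusted p = 7.89e-05), Bdh2 (-2.41 ± 0.29, edgeR adjusted p = 2.31e-07) and Ppargc1b, a coactivator (-1.70 ± 0.46, edgeR adjusted p = 0.00708). At 48 h, 9 were higher and 23 lower in KO (19% and 17% of all genes), and 6 higher and 25 lower in WT (15.6% and 15.4%).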

How the data were processed

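Poly(A) RNA from mouse livers was sequenced as paired-end reads in 45 libraries. Per the submitters' processing notes, FastQC 0.11.5, Trimmomatic, TopHat2 2.1.0, Cufflinks 2.2.1, HTSeq and DESeq2 were used, without a stated role or order. The authors deposited gene counts as raw whole numbers (19966 genes, 103 IDs without a symbol) and FPKM values (46472 rows, 66 repeated IDs). Groups were taken from the labels.

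Counts were fitted in edgeR 4.0.16 (R 4.3.3) with TMM scaling, its filter on low counts and the robust quasi-likelihood test, as 16 group means over 45 libraries. Residual degrees of freedom were 29, with 5.94 prior ones and a common dispersion of 0.0322. P-values were adjusted by Benjamini-Hochberg over the 14090 genes tested, and a value was called at an adjusted p under 0.05. The SE of a log2 fold change is its size divided by the square root of F. Fitting was tested on simulated counts. The 12851359 to 23133501 counts per library set the counting precision, and replicates differed by more than counting noise, with a chi-square per degree of freedom of at least 20.1.

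Alternatives were DESeq2 1.42.0, its size factors in edgeR, no filter on low counts, limma 3.58.1 on log2(FPKM + pseudocount), only the groups compared, no 96 h libraries, a replicate block, and each library left out in turn. Values are printed for landmark members, for the 6 members that varied most over time in WT without 96 h, and for members called between KO and WT. Genes of the wider pathway are named as up to 3 with the largest change per direction and comparison. The members and lists were chosen with earlier results of these data known. Some genes of the pathway are not analysed here. Reads of near-copies (Acot1 to Acot4, Cyp4a10 and Cyp4a14, Acaa1a and Acaa1b) may be split or shared by the counting.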

Additional observations from a re-analysis of the deposited data

Results flagged for a closer look

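By the interaction test of edgeR, 2.91% of all genes tested differed between the labels in their change from baseline to 96 h. Among the 50 genes of the wider pathway that were tested, 2 did. Both rest in part on the libraries labelled WT at 96 h, whose Bglap3, Rhox5 and Gstp2 levels lay in or near the KO range. They also rest on the libraries labelled KO at 96 h and on the baseline libraries of each genotype. In the related genes Cyp4a10 and Cyp4a14, replicate 1 labelled KO stood far above the other libraries of 96 h. Only group means are given here.

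For Cyp4a31 the response of KO minus that of WT was 2.42 ± 0.68 log2 units (SE, edgeR adjusted p = 0.047). Its mean was 48.5 CPM at 96 h and 5.13 CPM at baseline with the label KO, and 7.37 CPM at 96 h and 4.25 CPM at baseline with the label WT.

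For Acacb the difference of the responses was -1.78 ± 0.48 log2 units (SE, edgeR adjusted p = 0.0408). Its mean was 30.6 CPM at 96 h and 163 CPM at baseline with the label KO, and 59.4 CPM at 96 h and 92.1 CPM at baseline with the label WT.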

How the results depend on the processing

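Of the 194 called member values, none changed sign under any alternative run. DESeq2 size factors in edgeR kept 193, DESeq2 193, the replicate block 185, no filter on low counts 179 and limma on FPKM 160 past the threshold. The fit to only the groups compared kept 154 of 193, the fit without the 96 h libraries 169 of 170, and leaving out each library in turn 902 of 1169.

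The 3 members called between the labels at 96 h became 0 with no filter, 0 and 1 by limma on FPKM, 5 by DESeq2, 0 with only the groups compared and 5 with the replicate block. The 1 member called in the mean of 7 conditions became 0 with no filter, 0 without the 96 h libraries, 2 by limma on FPKM and 0 with the replicate block. Against baseline, the 4 called at 96 h with the label WT became 2 with only the groups compared, the 0 in WT at 7 days became 1 without the 96 h libraries, and the 0 in WT at 4 weeks became 1 by limma. In KO, the 17 at 96 h became 11 by limma, the 1 at 7 days became 2 without the 96 h libraries, 0 by limma and 3 by DESeq2, and the 11 at 4 weeks became 3 by limma and 20 with only the groups compared. The 0 responses that differed at 96 h became 4 by DESeq2. The causes were not tested.

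With 1 library left out, the counts ran from 0 to 12 between the labels at 96 h, from 0 to 1 in the mean of 7 conditions and from 0 to 8 for the response at 96 h. Against baseline they ran in WT from 7 to 11 at 30 h, 7 to 14 at 48 h and 1 to 6 at 96 h, and in KO from 15 to 22 at 30 h, 12 to 16 at 48 h, 12 to 20 at 96 h, 0 to 1 at 7 days and 1 to 8 at 4 weeks. At 24 h they stayed between 23 and 26 in KO and between 20 and 24 in WT.

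Replicate numbers are shared between KO and WT groups. The deviations of same-numbered libraries from their group means had correlations of -0.31 to 0.31, with a median of 0.09 and 8 of 21 pairs over 0.1. Groups of 2 or 3 libraries limit these comparisons, as do the labels at 96 h, the wide clock range of the baseline libraries and the sharing of reads between near-copies. Members with few counts, such as Acot3, are the least precise.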
